A study of Mus musculus with 13 samples.

Results

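The cells described here are cells of the mouse lung with RNA of MHC class II, labelled mature dendritic cells and chosen by 2 transcripts of dendritic cell maturation, Ccr7 and Ccl22. A cell was taken when it had at least 2 UMIs of Ccl22 or at least 2 UMIs of Ccr7, at least 20 UMIs summed over the MHC class II genes H2-Aa, H2-Ab1 and Cd74, and none of the T cell gene Cd3e, the B cell gene Cd79a or the type 1 dendritic cell genes Xcr1 and Clec9a. A UMI (unique molecular identifier) marks 1 captured RNA molecule. The rule was applied to the libraries numbered 1, 2, 3 and 7, to cells with at most 10% of their UMIs in mitochondrial genes, and it found 337 cells among 20856 kept in these 4 libraries, which hold 24344 of the 37344 barcodes of the series. The levels of the rule's own genes chose the cells and are given as a description.

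Single-cell libraries were prepared from the lungs of C57BL/6 mice, 1 mouse for each of 4 groups: Asthma (sensitised to ovalbumin and challenged with it), PPE-emphysema (repeated weekly instillation of porcine pancreatic elastase, PPE, into the trachea), PPE-recovery (a single early instillation of PPE followed by a longer wait) and Control (instilled on the schedule of the emphysema group). The lungs were dissociated with protease, no sort is named in the sources used here, and the ages of the mice were not found. The barcodes carry a library number alone, and which library belongs to which mouse is unknown. The matrix therefore counts as 1 sample, no test was run, and values are given by library number. Another 9 samples, 3 each of Acute injury, Con and emphysema, were not analysed here. Libraries 1, 2, 3 and 7 held 50552002, 79439569, 47364075 and 34606626 UMIs. Intervals are exact at 95% and cover counting error only, and say nothing of differences between mice.

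Dendritic cells take up antigen in the tissue, and after a maturation signal they stop sampling, raise costimulatory molecules and travel through lymphatic vessels to the draining lymph node. CCR7 is the receptor that guides this journey. It follows CCL21, which lymphatic endothelium releases, and CCL19. CCL17 and CCL22 are the ligands of CCR4, a receptor of T helper type 2 and regulatory T cells, and both are known from allergic airway inflammation. The same mature state carries brakes on T cells, among them PD-L1 (Cd274), PD-L2 (Pdcd1lg2) and the retinoic acid enzyme Aldh1a2, and can be reached by dendritic cells of more than 1 lineage.

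Ccl22 (ENSMUSG00000031779, plus strand) lies on chromosome 8 from 94745590 to 94751699 in GRCm38, the mm10 build of the files, and Ccl17 (ENSMUSG00000031780) lies downstream of it on the same strand, from 94810453 to 94812036. Ccr7 lies on chromosome 11 from 99144196 to 99155077 on the minus strand. The sequences upstream of Ccl22 and Ccl17 are printed as those of the chemokines that name these cells, and those of H2-M2 and Apol7c as genes of the chosen cells with no UMI in the Cd209a dendritic cells described below. They are RefSeq promoters of GRCm38.p6, up to 250 bases before the start on the gene's own strand, ended where the GENCODE gene model begins: chr8:94745434-94745589 (plus strand) for Ccl22, chr8:94810203-94810452 (plus strand) for Ccl17, chr17:37483555-37483804 (minus strand) for H2-M2 and chr15:77533317-77533565 (minus strand) for Apol7c. Capitals mark a match on either strand to GGG and TTCC parted by 3 bases, a form of the NF-kB site, or to TTC and GAA parted by 4 bases, a form of the STAT6 site, which reads alike on both strands. The 2 forms can overlap, and each was counted by itself.
Ccl22: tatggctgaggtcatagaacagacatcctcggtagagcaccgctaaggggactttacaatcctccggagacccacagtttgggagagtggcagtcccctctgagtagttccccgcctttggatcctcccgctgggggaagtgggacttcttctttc
Ccl17: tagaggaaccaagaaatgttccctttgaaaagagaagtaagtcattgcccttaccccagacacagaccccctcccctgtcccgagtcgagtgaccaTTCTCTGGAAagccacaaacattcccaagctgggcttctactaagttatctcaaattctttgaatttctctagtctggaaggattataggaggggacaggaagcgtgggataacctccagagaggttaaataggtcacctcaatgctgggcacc
H2-M2: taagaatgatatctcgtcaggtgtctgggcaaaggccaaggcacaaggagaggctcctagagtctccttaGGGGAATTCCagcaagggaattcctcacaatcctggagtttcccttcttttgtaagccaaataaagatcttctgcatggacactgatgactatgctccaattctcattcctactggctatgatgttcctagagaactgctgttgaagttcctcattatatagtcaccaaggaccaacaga
Apol7c: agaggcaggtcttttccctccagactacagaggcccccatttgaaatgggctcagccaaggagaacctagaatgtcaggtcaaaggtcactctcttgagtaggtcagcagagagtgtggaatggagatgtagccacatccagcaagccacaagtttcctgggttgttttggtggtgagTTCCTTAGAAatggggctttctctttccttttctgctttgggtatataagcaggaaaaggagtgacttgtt
The Ccl17 and Apol7c windows held the STAT6 letters once each, the H2-M2 window held the NF-kB letters once, and the Ccl22 window held neither. These letters also stood elsewhere, those of NF-kB in 4.65% and those of STAT6 in 5.85% of the 32851 RefSeq windows of 250 bases. Among the genes compared with Cd209a dendritic cells below that had a window, the NF-kB letters stood upstream of 24 of 248 genes at least 2-fold higher in the chosen cells (9.68%) and of 302 of all 4546 genes (6.64%). For the STAT6 letters the shares were 6.45% and 5.65%. A match describes the letters of a window and is not evidence of a bound site.

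The 337 cells fell into 3 sets by which of the rule's genes had brought them in. At least 2 UMIs of both Ccl22 and Ccr7 were present in 163 cells (48.4%, 42.9 to 53.8), of Ccl22 alone in 104 (30.9%) and of Ccr7 alone in 70 (20.8%). The label of mature dendritic cells was set beside the 11 markers the rule had not used, which are Ccl17, Fscn1, Cacnb3, Il4i1, Socs2, Tmem123, Relb, Cd83, Cd40, Cd200 and Ccl5. The members and the gene lists were chosen with earlier results of these data known, so this is a description and not an independent check. Cells with both genes had a median of 10 of the 11, and 125 of 163 had at least 8. Cells with Ccr7 alone had a median of 6, and 25 of 70 had at least 8. Cells with Ccl22 alone had a median of 4, and only 2 of 104 had at least 8. The sets were of like depth, with medians of 13598, 12607 and 14835 UMIs per cell in the order just given, and when each cell was thinned to 1500 UMIs the medians were 6, 3 and 2 markers. Dendritic cells with Cd209a and under 2 UMIs of Ccl22 and of Ccr7 had a median of 3 of the 11, or 1 when thinned, and 2 of 300 had at least 8. Macrophages with Marco or Siglecf had a median of 2, and none of 1634 had at least 8. By these markers the label describes the cells with both genes and part of those with Ccr7 alone. The cells with Ccl22 alone, 1 marker above the Cd209a cells at either depth, go against it and are called by their rule below.

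Fscn1, for the actin-bundling protein fascin that dendritic cells gain on maturation, was unevenly spread over the sets. A Fscn1 UMI was found in 71.2% of the cells with both genes (63.6 to 78.0), in 38.6% of those with Ccr7 alone (27.2 to 51.0) and in 2.88% of those with Ccl22 alone (0.599 to 8.20). For comparison, the share was 3.67% in Cd209a dendritic cells (1.84 to 6.47) at a median of 13416 UMIs and 10.1% in endothelial cells (9.01 to 11.2) at 5499 UMIs. Of the 3 positive cells with Ccl22 alone, those of library 1 held 18 and 23 Fscn1 UMIs and that of library 7 held 1, so the low share includes 2 cells with a high level. In the reverse direction, at least 2 UMIs of Cd209a, the lectin DC-SIGN that marks type 2 conventional dendritic cells, were present in 12.3% of the cells with both genes, 27.1% of those with Ccr7 alone and 61.5% of those with Ccl22 alone.

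**Figure D1:**
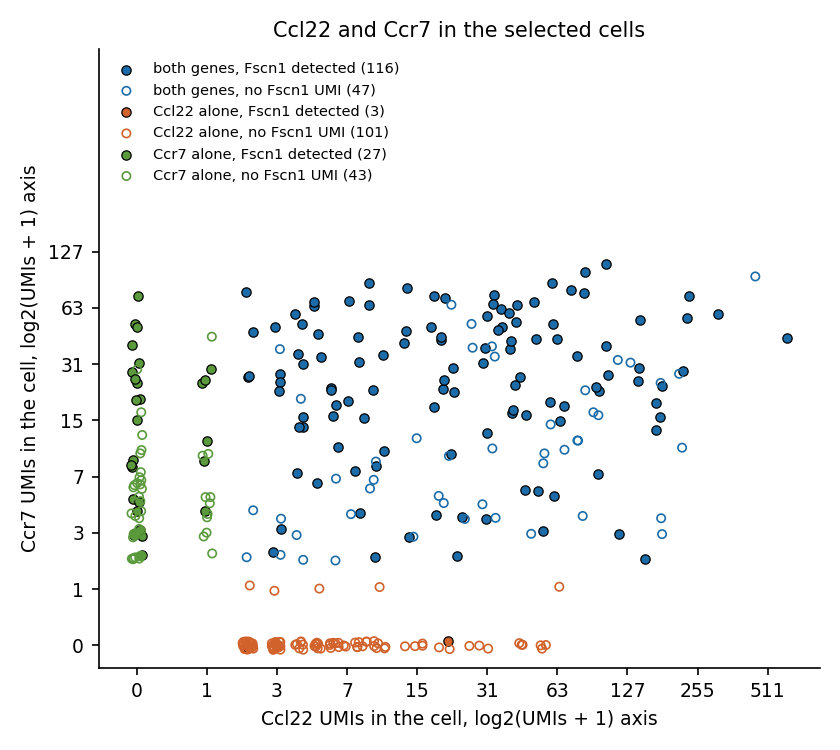
Ccl22 UMIs (horizontal) and Ccr7 UMIs (vertical) of each of the 337 cells on log2(UMIs + 1) axes, coloured by set, with filled points for cells with a Fscn1 UMI and open points for those without, and a small random shift to separate points. Filled points crowd the upper right, where 163 cells have at least 2 UMIs of both genes, and are nearly missing along the bottom, where 104 cells have Ccl22 alone.

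By library, the chosen cells made up 2.48% of the kept cells of library 1 (119 of 4800, 2.06 to 2.96), 0.983% of library 2 (75 of 7626, 0.774 to 1.23), 1.05% of library 3 (54 of 5129, 0.792 to 1.37) and 2.70% of library 7 (89 of 3301, 2.17 to 3.31). Libraries 1 and 7 thus held a larger share than libraries 2 and 3, with intervals that did not overlap, and the same order held for the cells with both genes, at 1.15%, 0.393%, 0.429% and 1.70%. After each cell was thinned to 1500 UMIs before the rule was applied, the shares were 1.45%, 0.435%, 0.377% and 1.60%. Whether the difference belongs to a treatment, to the mouse or to how many other cells each lung gave cannot be told apart, since the mouse and group of each library are unknown. In library 7, 62.9% of the chosen cells had both genes (52.0 to 72.9), against 46.2% (37.0 to 55.6), 40.0% (28.9 to 52.0) and 40.7% (27.6 to 55.0) in libraries 1, 2 and 3. The interval of library 7 overlapped those of libraries 1 and 3, and the shares with Ccl22 alone, 33.6%, 36.0%, 35.2% and 20.2% in libraries 1, 2, 3 and 7, had intervals that all overlapped. Libraries 4, 5 and 6 had 1 barcode among 12762 that met the rest of the rule.

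**Figure D2:**
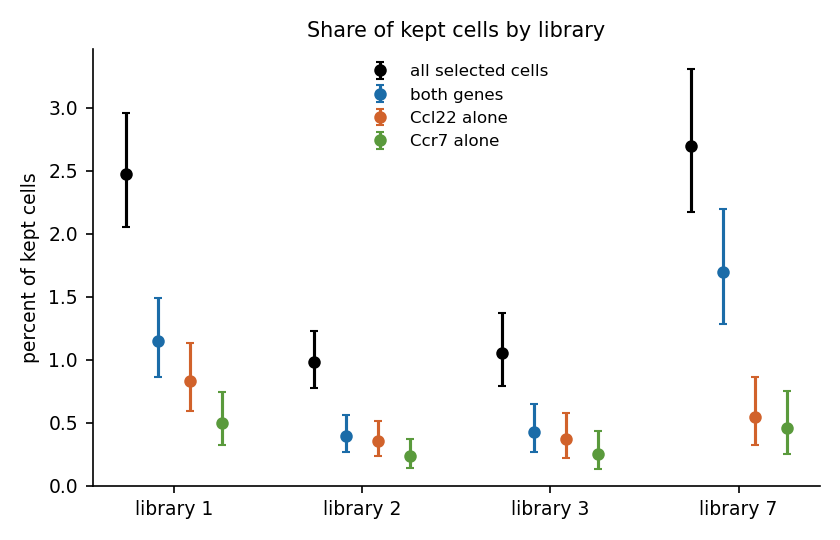
Percent of the kept cells of libraries 1, 2, 3 and 7 that met the rule (black) and that belonged to each of the 3 sets (coloured), with exact 95% binomial intervals for counting error. The black points stand at 2.48% and 2.70% in libraries 1 and 7 and at 0.983% and 1.05% in libraries 2 and 3.

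The chosen cells were deep, with a median of 13605 UMIs (range 459 to 48983) and 3123 genes, and a median of 4.36% mitochondrial UMIs. Scrublet, a doublet caller, marked 7 of the 337 and 728 of all 20856 kept cells, and they were left in. The barcode sequences of 3 chosen cells, all of library 7, recur in another library, and none recurs among the chosen cells. The rule's limits did not fall in a gap. Of cells that met the rest of the rule, 36 had exactly 2 UMIs of the higher of Ccl22 and Ccr7, just inside the limit, and 193 had 1, just outside it. Fscn1 was at 37.4 CPM (UMIs per 1000000 of the cells named) in the first and 3.88 in the second, while Ccl17 was lower in the first, at 746 CPM against 996. The exclusion of Xcr1 and Clec9a by itself removed 92 cells, 16 of which had at least 2 UMIs of both Ccl22 and Ccr7, so mature cells of the type 1 lineage are in part left out.

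RNA of other cell types was present at differing levels. The 12 macrophage markers summed to 945 CPM in the cells with both genes, 10598 in those with Ccl22 alone, 4628 in those with Ccr7 alone and 1355 in Cd209a dendritic cells, with Chil3, for a chitinase-like protein, at 7452 CPM in the cells with Ccl22 alone. By library the macrophage sum of these cells was 18935, 2306, 10385 and 2063 CPM, against 663, 1446, 1349 and 1854 in Cd209a dendritic cells, and without library 1 it was 4618 with Chil3 at 2249. The sum of the cells with Ccr7 alone was 2634 CPM without library 1, and the Chil3 of Cd209a dendritic cells was 366 CPM and, without library 7, 225. The 9 monocyte markers, led by Lyz2, summed to 1637, 6029, 4696 and 5601 CPM in that order. Those of the cells with both genes came to 1066 without library 3, and those of the cells with Ccl22 alone to 3866 without library 1. The 9 markers of T and NK cells summed to 55.7, 7.01, 99.1 and 6.23 CPM, and the 8 of B cells to 60.7, 98.2, 122 and 156. The T and NK sum of the cells with both genes was 351 CPM in library 3, where Gzma, with 83 UMIs in 1 cell, was the highest of them, and 9.61 without that library. The 8 markers of plasmacytoid dendritic cells, led by Bst2 or Tcf4, stood at 298, 278, 429 and 366 CPM, and 6 of the 337 cells held a Siglech UMI, 1 in each. The 11 granulocyte markers came to 27.0, 63.7, 30.6 and 286 CPM, the last 182 without library 3, with the eosinophil genes Ccr3 and Epx at 0 in all of these sets. Sftpc, for surfactant protein C of the alveolar epithelium, reached 2101 CPM in the cells with both genes, but 98.6% of its UMIs came from 2 cells, and 97.6% of the Scgb1a1 UMIs of Cd209a dendritic cells came from 2 cells. The part that such cells play in the differences below was not tested except where a value without them is given.

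The chosen cells were next set beside the other dendritic cells of the same libraries, to see what else differed in cells that hold Ccl22 or Ccr7. The comparison cells were 300 Cd209a dendritic cells (at least 2 UMIs of Cd209a, the same MHC class II and exclusion limits, under 2 UMIs of Ccl22 and of Ccr7), with 67, 119, 45 and 69 in libraries 1, 2, 3 and 7. UMIs were summed per library, and a log2 ratio of CPM was taken within each library with 0.5 added to each sum, so that a ratio from few or no UMIs in a library depends on that addition. Values below are the median of the 4 ratios with their lowest and highest in brackets. A gene is called higher or lower when the median is at least 2-fold and all 4 libraries have the same sign, among genes that average at least 20 CPM. Against Cd209a dendritic cells, 316 of 5689 genes were called higher in the 337 cells (5.55%) and 190 lower (3.34%). In the cells with both genes, 480 of 5571 were called higher (8.62%) and 639 lower (11.5%). The median ratio of all genes was -0.12 in the first comparison and -0.18 in the second. In the cells with Ccl22 alone 1.87% of the genes compared were called higher and 0.893% lower. In those with Ccr7 alone the shares were 4.03% and 2.62%. Counts of listed genes are read against the percentages of their own set. All of the sets below are compared with the same Cd209a cells, so their values are not independent of each other.

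**Figure D3:**
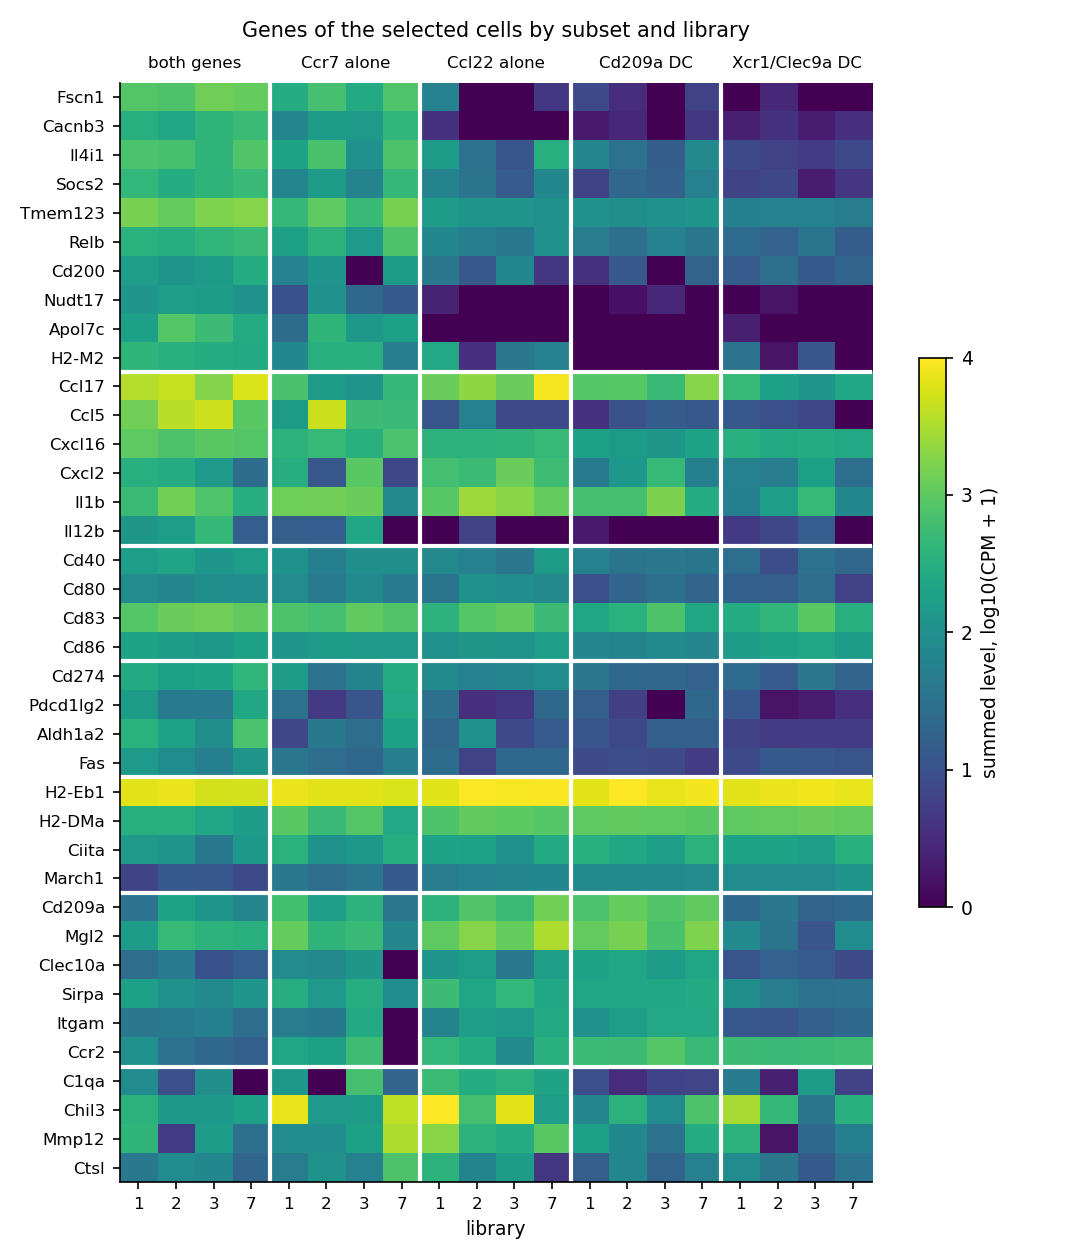
Summed level as log10(CPM + 1) of 38 genes (rows, grouped by role) in the cells with both genes, with Ccr7 alone, with Ccl22 alone, in Cd209a and in Xcr1 or Clec9a dendritic cells, each split into libraries 1, 2, 3 and 7 (columns). The upper rows, from Fscn1 to H2-M2, are bright in the cells with both genes and fade in those with Ccl22 alone, where Chil3 is bright in libraries 1 and 3, at 14706 and 6571 CPM, and lower in libraries 2 and 7.

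Among chemokines, Ccl17, Ccl5 and Cxcl16 were higher in the cells with both genes, and Ccl2, Ccl4 and Cxcl10 were lower, so 3 of 11 listed chemokines above the floor were called higher and 3 lower. Ccl22 itself, used by the rule, stood at 3382, 3775, 2188 and 4348 CPM in libraries 1, 2, 3 and 7. Ccl17, the other CCR4 ligand, was at 3650, 4481, 1835 and 5863 CPM, against 885, 911, 496 and 1866 in Cd209a dendritic cells. The groups did not overlap except that library 7 of the Cd209a cells lay just above library 3 of the cells with both genes, and within each library the cells with both genes were higher, with a median log2 ratio of 1.96 (1.65 to 2.30). A Ccl17 UMI was found in 92.0% of the cells with both genes and in 52.7% of Cd209a dendritic cells, while endothelial cells gave 1.12% at 5499 UMIs. Library 7 had the highest and library 3 the lowest Ccl17 in both kinds of cell.

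Ccl17 differed between the cells with Ccl22 alone and those with Ccr7 alone. In the cells with Ccl22 alone Ccl17 was at 1262, 2083, 1201 and 8822 CPM, and was called higher than in Cd209a dendritic cells at 1.23 (0.51 to 2.24). In each library 2 cells held 31.4%, 69.4%, 52.4% and 40.8% of these UMIs, so that a large part of the level came from few cells. Without the 2 cells with most Ccl17 in each library, the level was 904, 747, 636 and 6081 CPM. Library 2 then lay below its Cd209a dendritic cells, so the call does not hold without these cells. In the cells with Ccr7 alone Ccl17 was at 716, 153, 118 and 455 CPM and was called lower, at -2.03 (-2.56 to -0.30). Over all kept cells of these 4 libraries, the 337 cells held 78.4% of the Ccl22 UMIs, 41.9% of the Ccl17 UMIs and 41.2% of the Ccr7 UMIs, and Cd209a dendritic cells held a further 13.3% of the Ccl17.

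Ccl5, which draws T cells and NK cells, was at 1342, 3790, 4940 and 958 CPM in the cells with both genes and at 2.81, 8.92, 14.3 and 11.8 in Cd209a dendritic cells, a median log2 ratio of 8.51 (6.29 to 8.68). Libraries 2 and 3 were the high ones, and library 7, which had the highest Ccl17, had the lowest Ccl5. The T and NK markers of the cells with both genes were also highest in library 3, at 351 CPM against 4.16, 12.5 and 12.5 in libraries 1, 2 and 7. Without the 1 cell of library 3 that held Gzma, Nkg7 or Ncr1, its Ccl5 was 4845 CPM. NK cells and T cells held more Ccl5 than the 337 cells did, 16542 and 2854 CPM against 1337. Cxcl16, for a membrane-bound chemokine of CXCR6, was at 1005, 762, 936 and 857 CPM against 183, 153, 132 and 209.9, with a ratio of 2.38 (2.03 to 2.82). It was called higher in all 3 sets.

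**Figure D4:**
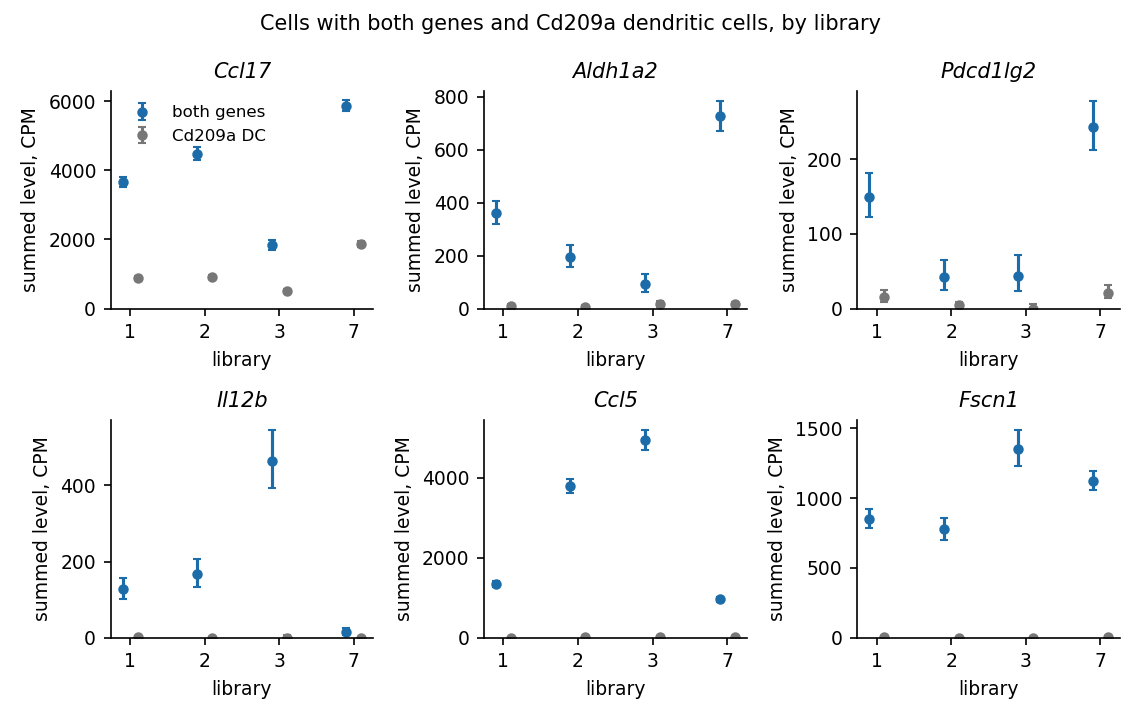
Summed level (CPM) of Ccl17, Aldh1a2, Pdcd1lg2, Il12b, Ccl5 and Fscn1 in the cells with both genes (blue) and in Cd209a dendritic cells (grey) of libraries 1, 2, 3 and 7, with exact 95% Poisson intervals. Ccl17, Aldh1a2 and Pdcd1lg2 are highest in library 7, Il12b and Ccl5 in library 3, and Fscn1 varies least, from 776 to 1354 CPM.

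Several receptors of other tissue chemokines were lower in the cells with both genes than in Cd209a dendritic cells. Of 6 chemokine receptors above the floor, 4 were called lower in the cells with both genes, among them Ccr1, Ccr2 and Cx3cr1, and none higher. Ccr2, which brings monocytes and their dendritic cell progeny out of the blood, was at 103, 31.3, 21.5 and 15.9 CPM, against 535, 559, 892 and 494 in Cd209a dendritic cells, with no overlap and a ratio of -4.51 (-5.27 to -2.37). Ccr7 in the same cells was at 1640, 1993, 2909 and 1870 CPM and is the rule's own gene. Cxcr4 varied between libraries, with a ratio of 1.31 (-0.67 to 2.51), and was not called.

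The partners of these chemokines lay in other cells. Ccr4 had no UMI in the 337 cells, which allows up to 0.592 CPM, and was at 26.8 CPM in T cells (23.3 to 30.8), the other classes having at most 1 UMI each. Within T cells it was at 61.2 CPM in cells with a Foxp3 UMI (43.7 to 83.3) and at 23.6 in those without (20.1 to 27.5). Ccl21, read as the sum over 3 near-identical genes that the counting cannot tell apart, was at 23432 CPM in lymphatic endothelial cells and 1.38 in the 337 cells. Ccl19 was at 21.5 CPM in fibroblasts and 3.57 in endothelial cells and had no UMI in the 337 cells, although mature dendritic cells are a known source of it elsewhere. Ccr7 was also carried by B cells at 291 CPM and T cells at 267 CPM, in which it had not been limited by the rule.

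**Figure D5:**
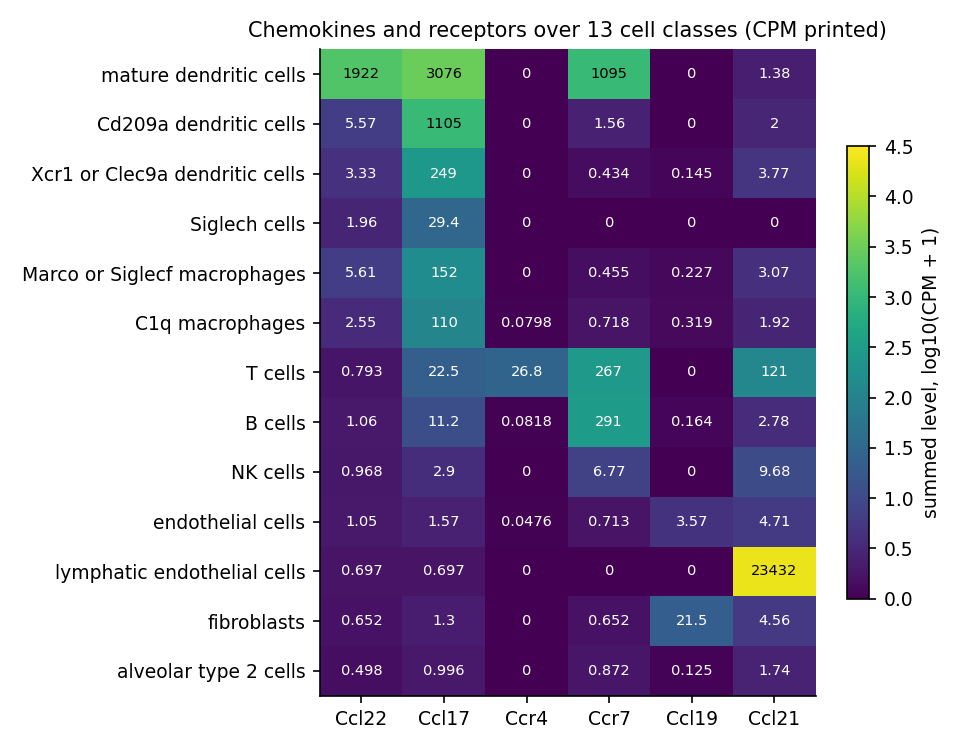
Summed level as log10(CPM + 1), with the CPM printed, of Ccl22, Ccl17, Ccr4, Ccr7, Ccl19 and Ccl21 over 13 cell classes of libraries 1, 2, 3 and 7. Ccl22 and Ccl17 are brightest in the top row, which holds all 337 chosen cells, Ccr4 is seen in T cells at 26.8 CPM, and Ccl21 in lymphatic endothelial cells at 23432 CPM. The low Ccl22 of several other classes is in part set by their rules, which allow fewer than 2 UMIs a cell.

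Genes of the cytoskeleton and of movement were higher as a group. In the cells with both genes 9 of 16 listed genes were called higher and 1, Coro1a, lower, and the median of the list was 1.26. Fscn1 (chromosome 5, 142960343 to 142973185) was at 849, 776, 1354 and 1124 CPM, against 6.55, 2.38, 0 and 5.08 in Cd209a dendritic cells, a ratio of 7.93 (6.92 to 10.57). Cacnb3, for a calcium channel subunit that is a regular marker of migratory dendritic cells, was at 337, 250.4, 412 and 527 CPM against 0.936, 1.78, 0 and 3.39, with a ratio of 7.51 (6.92 to 8.86). Neither gene overlapped between the groups in any library. Anxa3, for an annexin, had a ratio of 4.64 (3.67 to 5.19), Marcksl1, for an actin-binding substrate of protein kinase C, 2.73 (1.12 to 2.93), Swap70, which links surface signals to actin, 2.28 (1.89 to 2.98) and Myo1g, for a myosin, 1.85 (1.39 to 2.39). In the cells with Ccl22 alone, 1 of 14 was called higher, Marcksl1.

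H2-M2 and Apol7c had no UMI in Cd209a dendritic cells. H2-M2 (chromosome 17, 37480851 to 37483552, minus strand), a non-classical MHC class I gene, was at 415, 336, 299 and 274 CPM in the cells with both genes and at 0 in the 4491395 UMIs of Cd209a dendritic cells, which is at least 497-fold higher with a count of 0 read as up to 3. Apol7c (chromosome 15, 77524852 to 77533316, minus strand), for an apolipoprotein L of dendritic cells, was at 183, 885, 548 and 285 CPM and at least 613-fold higher. The 2 genes parted in the cells with Ccl22 alone, where Apol7c had no UMI and H2-M2 was at 260.2, 2.43, 37.4 and 58.6 CPM. Serpinb6b and Serpinb9, for inhibitors of serine proteases, followed with ratios of 6.31 (5.92 to 9.39) and 5.78 (5.55 to 5.92), the second chosen after its values were seen. Nudt17, Tm4sf5, Mreg, Slco5a1 and Lad1 summed to 313, 209, 323, 183 and 265 UMIs in the cells with both genes and to 2, 1, 2, 1 and 3 in Cd209a dendritic cells. Their folds over the summed libraries, with counting intervals, were 292 (80.2 to 2424), 390 (69.3 to 15487), 302 (82.8 to 2501), 342 (60.6 to 13569) and 165 (55.8 to 805), and Zmynd15 had a ratio of 6.54. Of the markers, Tmem123 was at 1594 CPM against 108 (ratio 3.88, 3.52 to 3.92), Socs2, an inhibitor of cytokine signalling, at 427 against 25.2, and Il4i1, an amino acid oxidase that slows T cells, at 715 against 49.4. Il4i1 overlaps Nup62 on the same strand, so that its counts are uncertain.

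Costimulatory genes were higher as well. Of 8 above the floor, Cd40, Cd80, Cd83, Cd86 and Icam1 were called higher in the cells with both genes and none lower, with a median of 1.31. Cd40, through which T cells signal back, was at 175, 213, 123 and 169 CPM, against 56.2, 33.3, 39.3 and 34.7 (ratio 1.95, 1.63 to 2.67). Cd80, a ligand of CD28 and CTLA-4, was at 84.7, 68.9, 98.5 and 87.4 CPM, against 8.42, 19, 28.6 and 19.5 (ratio 2.0, 1.76 to 3.26), and neither gene overlapped between the groups. Cd80 was higher to nearly the same degree in the cells with Ccl22 alone, at 1.95 (1.67 to 2.51), where it was the only one of 8 called. Tnfsf9, for 4-1BB ligand, did not differ by the rule, with 0.08 (-0.42 to 0.69).

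Genes that restrain T cells were higher beside those that stimulate them, though some were lower. In the cells with both genes, 8 of 14 listed inhibitory or regulatory genes were called higher (Cd274, Pdcd1lg2, Cd200, Fas, Aldh1a2, Socs1, Socs2 and Il4i1) and 4 lower (Havcr2, Tgfb1, Vsir and Lgals9), and the median was 2.47. Cd274 was at 279, 189.9, 206 and 421 CPM against 37.4, 20.8, 19.6 and 16.9, a ratio of 3.26 (2.88 to 4.60). Pdcd1lg2 was at 149.9, 41.7, 43.1 and 243 CPM against 15, 4.76, 0 and 21.2, a ratio of 3.39 (3.08 to 5.64). Both stood above Cd209a dendritic cells in every library. Aldh1a2, whose product makes the retinoic acid that favours regulatory T cells, was at 361, 196, 92.3 and 725 CPM against 10.3, 6.54, 16.1 and 16.1, a ratio of 4.96 (2.47 to 5.46). Pdcd1lg2, Aldh1a2, Cd274 and Ccl17 were each highest in library 7, and all but Cd274 were at or near their lowest in library 3. Cd200, for a ligand that quiets myeloid cells, had a ratio of 4.84 (3.25 to 7.42). Vsir, for the checkpoint VISTA, was lower at -2.04 (-2.62 to -1.44) and Tgfb1 at -1.04 (-1.72 to -0.59).

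Few cytokines were above the floor. Il12b, for the shared p40 chain of IL-12 and IL-23, was at 128, 167, 465 and 14.8 CPM in the cells with both genes and had 1 UMI in all Cd209a dendritic cells, a fold of 627 over the summed libraries (counting interval 112 to 24853). It was carried by 16 of 55, 9 of 30, 12 of 22 and 5 of 56 cells, so that library 3 was the highest and library 7, which led in Ccl17, Aldh1a2 and Pdcd1lg2, the lowest. In each library 2 cells held a large part of the Il12b UMIs, 48.9%, 48.75%, 45.0% and 61.5%, and library 7 had 13 UMIs. Il15ra, which presents IL-15 to T and NK cells, was at 58.3, 39.7, 92.3 and 42.0 CPM against 4.68, 3.57, 7.14 and 2.54 (ratio 3.53, 3.40 to 3.85). Il1b did not differ by the rule in the cells with both genes, at -0.08 (-1.06 to 1.18), and was called higher in those with Ccl22 alone, at 1.24 (0.23 to 2.04).

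NF-kB genes were higher with no listed gene called lower. Maturation runs through this pathway, which includes RELB, p100 (Nfkb2) and the kinase NIK (Map3k14). Of 18 listed genes of the pathway and of survival, 11 were called higher in the cells with both genes, and the median was 1.65. Relb was at 354, 313, 434 and 501 CPM against 46.8, 29.1, 58.9 and 38.9, a ratio of 3.16 (2.86 to 3.67) with no overlap. Ratios were 1.85 for Nfkb2, 1.65 for Rel, 1.44 for Map3k14, 2.01 for Traf1, an adaptor of TNF receptors, and 2.75 for Birc2, an inhibitor of cell death. Nfkb1 at 0.45 and Nfkbie at 0.01 were not called. Bcl2a1b was at 2.20, but shares reads with near-identical copies and is uncertain. Over all 337 cells 11 of 18 were called higher, in the cells with Ccr7 alone 8 of 17, and in those with Ccl22 alone 3 of 18 (Bcl2l1, Bcl2a1b and Cflar).

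Antigen presentation split by class. Beside the rule's own genes, 8 genes of the MHC class II pathway were above the floor, and in the cells with both genes 4 of them were called lower and none higher. March1, for the ligase that removes class II from the surface of immature cells, was at 5.55, 12.5, 12.3 and 6.81 CPM against 80.5, 80.9, 80.3 and 82.9, a ratio of -3.04 (-3.70 to -2.55). H2-DMa and H2-DMb1, for the exchange factor that loads peptide, were at -1.91 (-2.57 to -1.59) and -2.08 (-2.63 to -1.61), and Ciita, the class II activator, at -1.35 (-2.08 to -0.92). The class II chain gene H2-Eb1 was at 6170 CPM against 8551 and was not called, at -0.42 (-0.69 to -0.04). Of 15 class I genes, 4 were called higher and none lower: H2-Q7 at 2.05, the proteasome activator Psme2 at 2.02, the class I activator Nlrc5 at 2.0 and the peptide transporter Tap2 at 1.01. H2-K1, a classical class I gene, was at 1.0 (0.78 to 1.18), just short of the limit.

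In the cells with both genes, most listed genes of the type 2 dendritic cell, of monocytes, of uptake and of division were called lower. Of 13 type 2 dendritic cell genes 9 were called lower in the cells with both genes and none higher, with Clec10a at -3.35 (-3.92 to -2.38), Cd7 at -3.36 (-4.07 to -2.91) and Mgl2, for a galactose lectin, at -1.98 (-2.81 to -0.93). Irf4, the regulator of that lineage, was not called at -0.71 (-1.58 to 0.10). Since the comparison cells were chosen for Cd209a, a lower level of genes that accompany it is in part built into the comparison. Of 12 dendritic cell lineage genes, 1 was called higher and 3 lower. The higher one was Irf8, at 293, 225, 372 and 156 CPM against 28.1, 39.9, 105 and 33.9 (ratio 2.34, 1.82 to 3.36), and Zbtb46, a regulator kept by all conventional dendritic cells, was at 74.8 CPM against 48.8 and not called. Of 11 uptake and pattern recognition genes, 7 were called lower, among them Tlr2, Cd14, Fcgr2b, Fcer1g and Mrc1, and Cd36 higher, and of 7 monocyte markers 6 were lower. Of 11 cell cycle genes 8 were lower, with Ccnb2 at -3.52 (-4.86 to -1.60), and at least 2 UMIs of Mki67 or Top2a were present in 8.59% of the cells with both genes (4.78 to 14.0), 21.2% of those with Ccl22 alone (13.8 to 30.3) and 21.4% of those with Ccr7 alone.

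Receptors that bear on type 2 inflammation differed in both directions. Of 10, Il7r, Stat5a, Tnfrsf4 and Tnfrsf11a were called higher in the cells with both genes and Il1rl1 lower. Il7r, the chain that signals for thymic stromal lymphopoietin together with Crlf2, was at 272, 89.7, 129 and 312 CPM against 31.8, 20.2, 35.7 and 58.4 (ratio 2.28, 1.84 to 3.08), while Crlf2 itself was not called at -0.87 (-1.74 to -0.63). Il1rl1, for the IL-33 receptor ST2, was at 7.48 CPM against 68.4 (ratio -2.80, -4.35 to -2.64). Of 7 interferon-stimulated genes above the floor, 4 were called higher, among them Mx1, Epsti1 and Gbp2, and none lower. The list of CCR7 and CCR4 partners also held other genes, and 2 of its 12 were above the floor. These were Il2ra and Tnfrsf4, which are not themselves such partners, higher at 3.49 (2.30 to 4.87) and 7.08 (4.24 to 8.41).

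Cathepsins, the proteases at the centre of the study, were not higher as a group in the cells with both genes against Cd209a dendritic cells. Of 17 genes of cathepsins and the lysosome, 1 was called higher in the cells with both genes (Lamp1, at 1.34) and 3 lower, among them Ctsa and Grn. Ctsl, for cathepsin L, was at 40.2, 87.7, 73.9 and 19.3 CPM in the cells with both genes and at 15, 66.6, 17.8 and 55.0 in Cd209a dendritic cells. The groups overlapped, library 7 had the opposite sign to the others, and Ctsl was not called, at 0.91 (-1.48 to 2.01). Over all 337 cells Ctsl was called higher at 1.66 (0.34 to 3.55), a value that was 0.92, under the limit, without library 1 and also without library 3. It rested on few cells, since 2 cells held 53.3% of the Ctsl UMIs of those with Ccl22 alone and 2 held 70.8% of those with Ccr7 alone. Ctss, the cathepsin that trims the class II invariant chain, was at -0.36 (-0.53 to 0.65) in the cells with both genes and Ctsh at -0.07 (-0.22 to 0.36). In the cells with Ccr7 alone, 2 of 18 genes of this list were called higher, Ctsl and Lamp1, and 0 lower, beside 4.03% and 2.62% of all genes. Against the Xcr1 or Clec9a dendritic cells described below, 6 of 17 were called higher in the 337 cells, beside 10.2% of all genes. These were Ctsa, Ctsh, Ctsl, Ctss, Lgmn and Lamp1, while Cst3 was called lower.

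The cells with Ccl22 alone stood near Cd209a dendritic cells, with 107 of 5710 genes called higher (1.87%) and 51 lower (0.893%). What set them apart in part were macrophage genes, of which 5 of 11 above the floor were called higher. C1qa, for a chain of complement C1q, was at 533, 293, 367 and 203 CPM against 8.42, 2.38, 5.35 and 5.92, a ratio of 5.90 (5.01 to 6.78), but only 23 of the 104 cells had a C1qa UMI, and 2 cells held 89.3%, 90.7% and 96.6% of the C1qa UMIs of libraries 2, 3 and 7. Of the 104 cells, 18 had at least 10 UMIs of the C1q genes and 11 at least 2 UMIs of Marco or Siglecf, the receptors of alveolar macrophages, against 3 and 2 of the 163 cells with both genes, so that the name of dendritic cell is not held to apply to all 104. Over all 337 cells the C1qa ratio of 5.15 turned to -0.37 when members with either were left out, as their removal requires. Other genes that were higher there, named after their values were seen, were the elastase Mmp12, at 1113 CPM against 154 (ratio 2.81, 1.66 to 3.42), Lpl, for lipoprotein lipase, at 863 against 88.4, and Igf1, at 69.5 against 5.79. Cxcl2, a neutrophil chemokine, was at 705 CPM against 135 (ratio 2.72, 1.36 to 3.90). Ly6c2 and Plac8, which mark classical monocytes, were lower, with 1 and 27 UMIs in the 104 cells against 721 and 2164 in Cd209a dendritic cells. Their levels were 0.584 against 161 CPM and 15.8 against 482 CPM, and their folds over the summed libraries were 0.00364 (counting interval 9.20e-05 to 0.0203) and 0.0327 (0.0215 to 0.0478).

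Set directly against those with Ccl22 alone, the cells with both genes had 386 of 5521 genes called higher (6.99%) and 571 lower (10.3%). Over the summed libraries Fscn1 had 2414 UMIs against 42, a fold of 40.9 (counting interval 30.2 to 56.9), with no UMI in the cells with Ccl22 alone of libraries 2 and 3. Cacnb3 had 961 against 2, a fold of 342 (94.4 to 2827), Ccl5 had 5232 against 33, a fold of 113 (80.2 to 164), and Apol7c was at least 234-fold higher. Il1rl1 at -3.35 (-3.50 to -2.89), Mrc1 at -4.11 (-4.73 to -1.82) and Ccl2 at -3.94 (-4.57 to -2.75) were lower. Mmp12 was lower too, at -3.64 (-6.16 to -0.94). The sets also differed in Ccl22 itself, with a median of 25 UMIs per cell in the cells with both genes and 4 in those with Ccl22 alone.

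The cells with Ccr7 alone lay between. Against Cd209a dendritic cells 229 of 5686 genes were called higher (4.03%) and 149 lower (2.62%). They shared the marks of movement, with Fscn1 at 297, 655, 283 and 797 CPM (ratio 7.56, 5.41 to 8.32), 8 of 16 cytoskeletal genes called higher, and Apol7c and H2-M2 at least 279-fold and 291-fold higher. Ccl17 and Aldh1a2 did not follow, at -2.03 and 1.69 (-0.49 to 3.55), the second not called. The markers of T and NK cells summed to 99.1 CPM in them, against 6.23 in Cd209a dendritic cells, and those of B cells to 122 against 156. T and B cells carry Ccr7, and their part in these values was not tested.

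Against 381 dendritic cells with Xcr1 or Clec9a, the type 1 lineage that cross-presents antigen, 562 of 5499 genes were called higher in the 337 cells (10.2%) and 296 lower (5.38%). Of 18 NF-kB genes 17 were called higher and none lower, and 8 of 12 chemokines were higher (Ccl17, Ccl5, Ccl2, Ccl3, Ccl9, Ccl24, Cxcl2 and Cxcl16). Of 9 macrophage markers above the floor 7 were also called higher, with a list median of 2.21 and a sum of 4896 CPM against 1356, and their part in these values was not tested. Fscn1 had a ratio of 10.31 (7.83 to 10.97), Il4i1 6.15 (5.37 to 6.62) and Ccl17 3.57 (2.17 to 4.69). Of 12 type 2 dendritic cell genes 10 were higher, among them Irf4 at 3.65 (3.27 to 4.25), S100a4 at 3.69 (2.85 to 3.93) and Sirpa at 2.02 (1.79 to 3.11), and of 13 lineage genes 7 were lower, among them Irf8 at -3.37 (-3.79 to -2.96) and Cadm1, for an adhesion molecule, at -3.95 (-6.19 to -2.95). At least 2 UMIs of Cd209a were present in 30.6% of the 337 cells. The share was 61.5% in those with Ccl22 alone and 12.3% in those with both genes. The cells with both genes were not compared by themselves with the type 1 lineage, so these type 2 values are not theirs alone. The Irf8 of the 337 cells, 150.3 CPM, thus lay between the 43.6 CPM of Cd209a and the 1532 CPM of Xcr1 or Clec9a dendritic cells. The exclusion of any cell with Xcr1 or Clec9a bears on this side of the comparison.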

How the data were processed

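RNA of dissociated mouse lung cells was counted by the authors as UMIs per gene and cell. The deposited counts are whole numbers in 1 matrix that, per the file headers, Cell Ranger 3.1.0 aggregated over 7 libraries, with reads down-sampled to a like depth. The submitters' processing notes name STAR and mm10. The labels name a version 3 kit, and the supplementary methods name another. Library totals are given with the results, and low totals limit precision.

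The members and gene lists were chosen with earlier results of these data known. No normalization beyond CPM was applied. Cells over 10% mitochondrial UMIs were left out. UMIs were summed per library, ratios were taken within libraries with 0.5 added, and no test was run because the libraries carry no group. Genes under a mean of 20 CPM, and those that chose the cells compared (the rule's genes and Cd209a), were left out of counts. Named genes were the rule's genes and markers, the 15 highest and 10 lowest ratios of the 337 cells, and, within each of 24 fixed lists, the 4 highest and 2 lowest members by the same ratio, with the cathepsins, the Ccr7 ligands and Ccr4. Other named genes were added from the comparisons of the 3 sets after their values were seen. Shares carry exact binomial and levels exact Poisson intervals at 95%. A count of 0 was read as up to 3. Thinning drew 1500 UMIs a cell. Gene positions came from GENCODE M21 (30934 of 31053 identifiers) and promoters from RefSeq. On simulated counts of 5612 genes for the 337 cells against Cd209a dendritic cells, the call found 50 of 50 genes made 4-fold higher, 37 of 37 above the floor made 4-fold lower, 44 of 50 made 2.5-fold higher, 32 of 40 above the floor made 2.5-fold lower, and 0.0920% of 5435 unchanged genes. The simulated sums used the same profile in every library and the same spread for every gene. They held no cells with most of a gene's UMIs, as some real sums do. These shares are therefore not the error of the calls made here. Alternatives left out each library or cells with genes of other types, or changed the rule, the mitochondrial limit, the floor, the fold, the depth and the averaging. Python 3.11.15, numpy 2.4.6, scipy 1.17.1, pandas 2.3.3, scanpy 1.11.5 (Scrublet) and matplotlib 3.10.9 were used. Some genes are not reported here.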

Additional observations from a re-analysis of the deposited data

How the results depend on the processing

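The rule found 337 cells, and 212 with a mitochondrial limit of 5%, 163 when both Ccl22 and Ccr7 were required, 144 when members with macrophage, T or B cell genes were then left out (an alternative chosen after seeing the data) and 218 to 283 when each library was left out in turn. Of the 163 cells with both genes, 89 remained at the 5% limit, 108 without library 1 and 107 to 141 over the libraries left out. Against Cd209a dendritic cells, 316 genes were called higher. The count was 480 in the cells with both genes, of which 294 were among the 316, 510 in these without cells holding genes of other types, 708 with no floor, 185 with a floor of 50 CPM, 97 at a fold of 4 and 315 to 350 without each library. The 190 genes called lower depended more on the setting, with 639 in the cells with both genes, 682 in these without cells holding genes of other types, 287 by the mean of each cell's CPM, 316 with cells thinned to 1500 UMIs, 601 with no floor, 89 with a floor of 50 CPM, 5 at a fold of 4 and 180 to 266 without each library. Thinned cells shared 226 of the 316 higher and 96 of the 190 lower genes. The cause was not tested, apart from floors and folds, which act by construction.

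Each of 760 log2 ratios (40 named genes, 19 alternatives) was set against the counting error of its gene's pooled ratio. Of these, 588 moved by no more than that error, 170 moved by more, and 2 reversed. Both reversals were of C1qa, at -0.37 without members that had macrophage genes and at -1.19 in the cells with both genes without cells holding genes of other types, as the removal of cells with C1q requires. H2-M2 and Apol7c, with no UMI in Cd209a dendritic cells, had no upper limit to that error and could not count as moved. The spread between libraries did not enter these labels. Of 64 shares by library 13 moved. No paired analysis was possible between treatment groups because the libraries carry no treatment group or replicate number. Ratios between cell classes were taken within each library and are paired by library. Since the mouse and group of each library are unknown, differences between libraries cannot be assigned to a treatment.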
